A study of Mus musculus with 18 samples.

Results

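CpG methylation with the W465A form of DNMT1 was compared with that of the WT form in mouse embryonic stem (ES) cells, in 6 of the 18 libraries of the series. The cells of every group carry a knockout of Dnmt1 and were transfected with the pPyCAGIP vector, a plasmid that drives its insert from a constitutive promoter and gives puromycin resistance. WT cells received WT DNMT1, and W465A cells received DNMT1 with the W465A exchange of a tryptophan for alanine, so neither group has the natural expression of the enzyme. Each group has 3 replicates, called biological in the labels, and the cells were grown in serum with leukemia inhibitory factor on gelatin. Several stable lines were made per group, and whether each replicate is a line of its own is not stated, so the p-values below measure the spread between these libraries. The assay was enhanced reduced representation bisulfite sequencing (eRRBS), in which genomic DNA is digested, treated with bisulfite so that cytosine without methylation reads as thymine, and sequenced at the fragments obtained. The level of a CpG is the number of methylated reads over all reads. The comparison rests on the 2217784 CpGs that had at least 5 reads in each of the 6 libraries, 10.1% of the 21867550 CpGs listed.

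DNMT1 is the maintenance methyltransferase: after replication it copies the methylation of the parental strand onto the new strand. Its RFTS domain, where the W465A exchange lies, binds histone H3 ubiquitylated by UHRF1 and also folds back onto the catalytic domain. In ES cells most of the genome outside CpG islands is methylated, CpG island promoters are not, and a few classes of genes, such as those of the germline, are kept silent by methylation of dense promoters.

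Before the results, 4 features of the libraries are given. CpG calls ranged from 59776439 to 138978763 per library, and the median coverage of the CpGs used from 10 to 23 reads. Relative to the autosomal median, coverage of chromosome 11 was 1.78 in WT replicate 1 and 1.77 in WT replicate 2 against 1.18 to 1.204 in the other libraries, and that of chromosome 8 was 1.49 in WT replicate 1. The Y chromosome had 0.00866 of the autosomal coverage in W465A replicate 1 against 0.0568 to 0.0617 elsewhere. WT replicate 1 and W465A replicate 1 also stood apart from the other libraries of their groups in methylation, as given below. Methylation counts do not show the substitution, so the labels could not be checked on the targeted gene. The 13 covered promoters of pluripotency genes averaged 4.25% ± 3.96 in the 3 WT libraries (SD). Pou5f1, Sox2, Klf4 and Utf1 were at 1.52% or less in every library, whereas Dppa2 stood at 0%, 50% and 13.3% and Prdm14 at 5.31%, 34.5% and 4.76% in WT replicates 1, 2 and 3. Of the 3 covered promoters of fibroblast genes, Col1a1 was at 46.8% to 61.1%, S100a4 at 68.8% to 85.5% and Twist2 at 1.81% to 2.63% in WT.

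The sequences that follow show the range of outcomes within loci that WT cells methylate. Each is on GRCm38, 5′ to 3′, with the CpGs measured in all 6 libraries in capitals. The first 3 lie in 1 kb tiles that lost most and the others in tiles that kept most. They were chosen by these values, by a fixed rule, among stretches of 200 bases that were at most 50% repeat-masked.
Tile 350208 bp from Gm16405, chrX:54180203-54180402, plus strand: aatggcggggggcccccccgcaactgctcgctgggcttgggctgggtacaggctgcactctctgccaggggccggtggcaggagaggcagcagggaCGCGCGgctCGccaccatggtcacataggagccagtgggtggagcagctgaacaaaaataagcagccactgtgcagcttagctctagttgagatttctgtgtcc
Tile 262707 bp from Gprin3, chr6:59689577-59689776, plus strand: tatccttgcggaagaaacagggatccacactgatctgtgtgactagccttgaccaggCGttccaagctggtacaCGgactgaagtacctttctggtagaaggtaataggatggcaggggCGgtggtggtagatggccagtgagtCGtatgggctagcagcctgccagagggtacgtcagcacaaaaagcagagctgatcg
Cfap46 intron, chr7:139672172-139672371, plus strand: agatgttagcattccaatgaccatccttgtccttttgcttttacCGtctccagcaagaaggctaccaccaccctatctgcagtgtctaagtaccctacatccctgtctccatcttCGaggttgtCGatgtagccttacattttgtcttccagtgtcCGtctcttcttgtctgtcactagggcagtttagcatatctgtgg
Ccr6 intron, chr17:8246205-8246404, plus strand: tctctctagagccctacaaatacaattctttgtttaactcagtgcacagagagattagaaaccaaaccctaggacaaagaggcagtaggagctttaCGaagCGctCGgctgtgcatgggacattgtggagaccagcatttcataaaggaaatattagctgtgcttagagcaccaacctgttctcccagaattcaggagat
Nkd1 intron, chr8:88579621-88579820, plus strand: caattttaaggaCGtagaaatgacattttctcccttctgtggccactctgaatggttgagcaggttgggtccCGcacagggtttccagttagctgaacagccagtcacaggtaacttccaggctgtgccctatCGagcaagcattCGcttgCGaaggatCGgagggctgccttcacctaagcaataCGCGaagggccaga
Over the 4 CpGs of the first stretch the WT libraries had 100%, 100% and 95% and the W465A libraries 26.1%, 0% and 11.5%. Over the 4 CpGs near Gprin3 the levels were 93.8%, 98.6% and 80.0% in WT and 25%, 7.81% and 2.08% in W465A. The Cfap46 stretch had 72.5%, 96.5% and 89.3% in WT and 10%, 6.82% and 4.55% in W465A. All 3 stretches held 4 measured CpGs, and in each every CpG was lower in W465A than in WT when the reads of a group were pooled. Ccr6, a chemokine receptor gene, had 80.6%, 98.6% and 91.1% in WT and 87.2%, 80.6% and 76.7% in W465A over 3 CpGs. The Nkd1 stretch, in a gene for an inhibitor of Wnt signalling, had 8 measured CpGs with 75%, 98.1% and 83.8% in WT and 82.9%, 77.2% and 75.8% in W465A. In both kept stretches the groups overlapped. Reads per CpG and library were between 5 and 29 in these stretches, so single values are coarse.

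CpG methylation was lower in every W465A library than in every WT library. Mean levels, each CpG counted once, were 45.9%, 58.2% and 55.7% in the WT libraries and 28.2%, 19.6% and 20.1% in the W465A libraries. Replicate 1 was the library nearest to the other group on both sides. WT averaged 53.3% ± 6.52 (SD, n = 3) and W465A 22.6% ± 4.82 (SD, n = 3), a difference of -30.6 points with a standard error of 4.68. W465A kept 42.5% ± 9.06 (SD, n = 3) of the mean WT level. The exact two-sided permutation p was 0.1, the smallest that 3 libraries against 3 allow. Leaving out WT replicate 1 gave -34.3 points, leaving out W465A replicate 1 gave -33.4 points, and dropping chromosomes 8, 11, X and Y gave -30.7 points. Raising the read minimum from 5 to 10 gave -19.8 points, and raising it to 20 gave -6.46 points. A higher minimum also changes which CpGs are used. The share of 1 kb tiles at 80% or more in WT was 41.3% at 5 reads and 30.1% at 10. The share of the WT level kept at these minima is not given here, so the smaller differences do not show a smaller proportional loss.

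The loss had the shape of a shift of nearly all methylated regions to partial levels, not of a split into emptied and untouched ones. The genome was divided into tiles of 1 kb, of which 252536 held at least 3 used CpGs, with a mean of 6.88. The median tile stood at 64.3%, 81.7% and 80.0% in the WT libraries and at 37.3%, 23.8% and 25.4% in the W465A libraries. In WT, 41.3% ± 20.6 (SD, n = 3) of tiles were methylated at 80% or more, with 17.8%, 55.9% and 50.3% in the 3 libraries, WT replicate 1 being the low one. The shares in W465A were 0.512%, 0.184% and 0.0622%. Tiles below 20% rose from 12.6% ± 1.81 of all tiles (SD, n = 3) to 34.0% ± 10.04 (SD, n = 3). Those between 20% and 40% rose from 5.11% ± 2.59 (SD, n = 3) to 38.2% ± 5.21 (SD, n = 3). Each W465A library had 1 broad peak away from 0, at 40% to 45% in replicate 1 and at 25% to 30% in replicates 2 and 3, beside the peak of unmethylated tiles near 0 that WT has too.

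**Figure D1:**
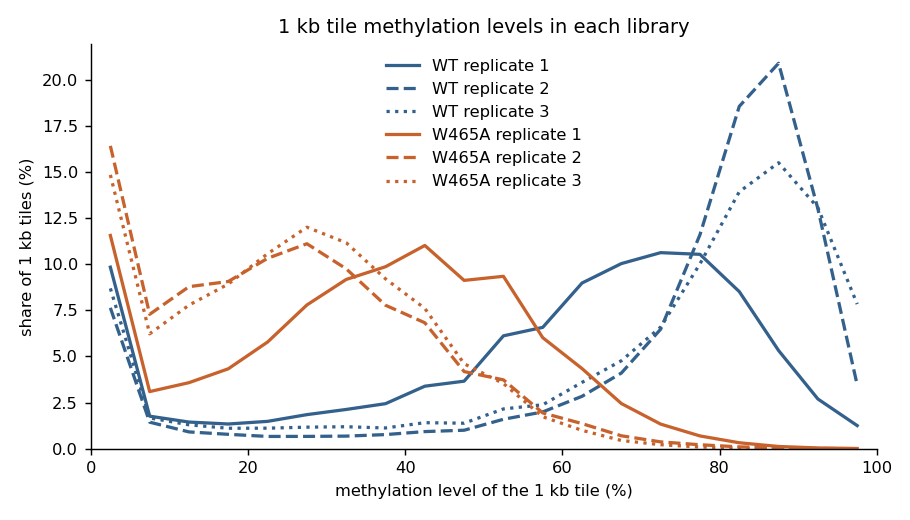
Share of the 252536 tiles of 1 kb (vertical axis, percent) against their methylation level (horizontal axis, percent, in bins of 5 points), 1 line per library, WT in blue and W465A in orange. The WT lines peak near the right end and the W465A lines in the middle, with W465A replicate 1 to the right of the other W465A libraries.

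Tiles that were highly methylated in 1 WT library were followed through the others. WT replicate 2, the deepest library, had 118666 tiles at 80% or more, each with 20 reads or more per library. They averaged 71.3% and 84.0% in WT replicates 1 and 3, which were not used to choose them, and 45.1%, 32.0% and 33.0% in W465A. Only 0.354%, 5.22% and 2.66% of them were below 10% in the W465A libraries, and 0.57%, 0.185% and 0.0556% were still at 80% or more. The standard deviation across these tiles was 13.5, 14.5 and 12.8 points in W465A, close to the 12.8 and 10.1 points of WT replicates 1 and 3. Single CpGs away from dense regions gave a like picture. CpG density is the number of CpGs in the 250 bp before and after a CpG, counting that CpG. CpGs with at least 20 reads and a density of 1 to 5 were taken in each library on its own. The sets therefore differ, with 14696 to 332403 CpGs in the WT libraries and 23424 to 74742 in the W465A libraries. Among these CpGs, 22.8% to 60.5% were at 80% or more in the WT libraries and 0.361% to 1.74% in the W465A libraries. Their spread beyond what the number of reads gives was 15.1 to 19.6 points in WT and 15.5 to 17.2 points in W465A. In DNA from many cells, a partial level in every cell and a mixture of cells with full and lost methylation cannot be told apart.

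From a WT level of 20% up, the share kept rose with the WT level. Tiles were sorted by their level in WT replicate 2, and the W465A mean was set against that of WT replicates 1 and 3. It was 40.7% ± 7.68 (SD, n = 3) of the WT level for tiles below 20%, 34.4% ± 9.66 (SD, n = 3) at 20% to 40%, 37.7% ± 10.4 at 40% to 60% and 41.6% ± 9.88 at 60% to 80%. It was 46.3% ± 9.41 at 80% to 90% and 49.5% ± 9.18 at 90% to 100% (each SD, n = 3). In every one of these bins W465A replicate 1 kept more than replicates 2 and 3. Neighbouring bins differed by less than the SD over the 3 W465A libraries, and the rise from 20% up was present in each library.

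**Figure D2:**
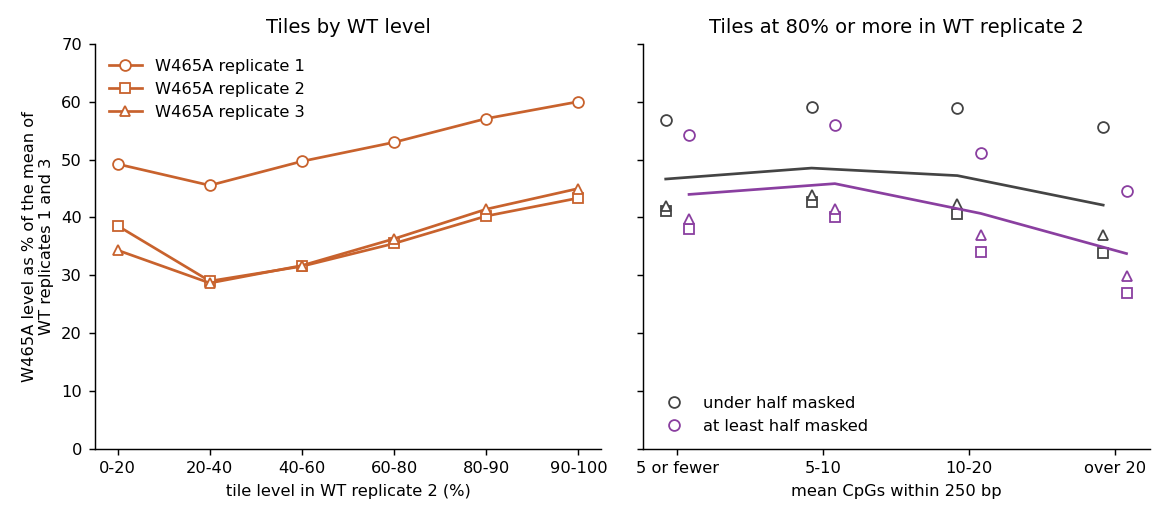
Left, W465A level as a percent of the mean of WT replicates 1 and 3 (vertical axis) for tiles grouped by their level in WT replicate 2 (horizontal axis, percent), 1 line per W465A library. Right, the same share for tiles at 80% or more in WT replicate 2, by mean number of CpGs within 250 bp and by repeat masking, with 1 point per W465A library and a line for the mean, which falls to 33.8% in dense masked tiles.

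In the test of each tile, 213997 of 252536 tiles (84.7%) were lower in W465A by 10 points or more with an adjusted p below 0.05, and 1 tile (0.000396%) was higher. Among tiles with a WT level of at least 50% the share called lower was 95.8%. The W465A libraries all lay below the WT libraries in 207908 tiles and all above in 222. The 1 tile called higher covers 8 CpGs of the promoter of Cox7c, a gene for a subunit of cytochrome c oxidase (chromosome 13, 86046001 to 86047000). It had 0% in every WT library and 0%, 27.4% and 7.02% in the W465A libraries, with an adjusted p of 0.023, so it rests mostly on W465A replicate 2. The call was lost without W465A replicate 2, WT replicate 2 or WT replicate 3, with adjusted p between 0.0612 and 0.0797. In the 12 libraries of the other groups the tile was at 0.73% or less.

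Regions were then asked whether they lost more or less than 1 common shift. On the logit scale the common shift was -2.02, an odds ratio of 0.133. Of the 252536 tiles, 324 (0.128%) lay below it by at least 10 points at an adjusted p under 0.05, and 73 (0.0289%) lay above it. The counts were 3897 and 22 when the shift was taken from the library means, and 0 and 0 without squeezing of the dispersion. At an unadjusted p under 0.05 there were 12259 below and 10195 above, and 10058 and 7810 without squeezing. The 324 tiles that lost more had 84.7% in WT and 16.6% in W465A on average. CpGs were mostly repeat-masked in 75.9% of them against 11.8% of all tiles, 65.1% were intergenic against 33.0% of all tiles, and their median CpG density was 20.3 against 9. Their median depth was 1470 reads over the 6 libraries against 364 for all tiles, and the part of depth in these calls was not tested. The 73 tiles above the shift had 44.6% in WT and 30.04% in W465A. These counts depended on single libraries. Without WT replicate 1, 2 or 3 there were 28, 1 and 210 tiles below and 9, 0 and 39 above. Without W465A replicate 1, 2 or 3 there were 20, 20 and 3 below and 3, 3 and 0 above, with 10033 to 12124 below and 8551 to 10078 above at an unadjusted p under 0.05 over these 6 fits. Limma and edgeR were not run on this contrast.

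The same tiles were read in libraries that did not choose them, since 3 other groups (W464A/W465A, then W465A/W796A, then the triple form W464A/W465A/W796A) carry W465A together with further substitutions. In that order of groups the 324 tiles had 11.1% ± 3.06, 50.8% ± 4.16 and 14.3% ± 2.17 (each SD, n = 3). All tiles with a pooled WT level of at least 50% had 24.6% ± 3.08, 56.5% ± 4.25 and 24.2% ± 2.84 (each SD, n = 3). The 324 tiles were thus lower than methylated tiles at large in each of these 3 groups, a difference that was not tested. In W796A alone, without W465A, they had 79.8% ± 15.96 (SD, n = 3) against 76.4% ± 13.3 (SD, n = 3).

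The share kept differed with genomic context, from 33.7% to 45.0% over the classes of this paragraph up to a density of 40. By CpG density, W465A kept 36.7% ± 8.57 of the WT level at CpGs with no other CpG within 250 bp, 41.8% ± 8.62 at 1 to 5 CpGs, 44.4% ± 8.95 at 6 to 10, 41.5% ± 9.70 at 11 to 20 and 33.7% ± 9.52 at 21 to 40 (each SD, n = 3). CpGs with over 40 had 0.958% in WT and 0.483% in W465A, a share of 50.4% ± 7.53 (SD, n = 3) of a level near 0. Up to a density of 40, the classes at both ends kept less than the middle. In each W465A library the share at 6 to 10 CpGs was above that at 1 CpG and that at 21 to 40. At 1 to 5 CpGs, introns kept 43.4% ± 8.82, exons 43.8% ± 9.05, intergenic CpGs 39.9% ± 8.41 and promoters 38.7% ± 8.31 (each SD, n = 3). Among those sparse CpGs the share also differed with the distance to the nearest CpG. It was 45.0% ± 8.63 with a neighbour 3 to 10 bp away and 33.9% ± 8.77 in the class farthest from any other CpG, of 4412 CpGs (each SD, n = 3). The 4531 CpGs with a neighbour only 2 bp away kept 41.2% ± 7.92 (SD, n = 3), less than those at 3 to 10 bp.

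Repeats and the X chromosome kept less. Repeat-masked CpGs kept 39.4% ± 8.78 of the WT level and the others 43.0% ± 9.11 (each SD, n = 3), and the gap was present at each density. On X, CpGs at a density of 1 to 5 kept 36.6% ± 8.30 (SD, n = 3) against 41.8% ± 8.62 (SD, n = 3) on the autosomes, and the 19 autosomes lay between 40.9% and 42.5%. Chromosomes 8 and 11, with extra coverage in WT libraries, were at 41.6% and 42.5%, within that range. The 6 contrasts fixed for testing were differences between W465A and WT of the log2 ratio of 2 contexts. Over all densities they were -0.28 (SE 0.06) for X against autosomes, -0.13 (SE 0.02) for repeat-masked against not and -0.07 (SE 0.03) for exon against intron. For a density of 1 to 5 against over 20 the value was 0.26 (SE 0.13). Over all densities X kept 35.0% and the autosomes 42.5%, from WT means of 38.8% and 53.4%, so the X contrast includes a different mix of CpGs. The exon contrast does so too, from WT means of 54.6% in exons and 66.4% in introns. At a density of 1 to 5 exons did not keep less than introns. In W465A replicates 1, 2 and 3 exons there kept 54.22%, 38.25% and 38.86%, and introns 53.63%, 38.19% and 38.52%. In these 4 contrasts the groups did not overlap, with an exact two-sided permutation p of 0.1 and a Benjamini-Hochberg adjusted p of 0.15 over 6 tests, so none passed, as none could with 3 libraries against 3. At a density of 1 to 5, CpGs flanked by A or T against those flanked by C or G had -0.11 (SE 0.06, exact p 0.2). For intergenic against promoter CpGs, over all densities, the value was 0.08 (SE 0.09, exact p 0.5). In both of these contrasts the groups overlapped. The last value turned to -0.0435 at a minimum of 10 reads and -0.46 at 20. The contrast of a density of 1 to 5 with over 20 also depended on the read minimum. It was 0.28 at 10 reads (exact p 0.1) and 0.05 at 20 reads (exact p 0.9).

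**Figure D3:**
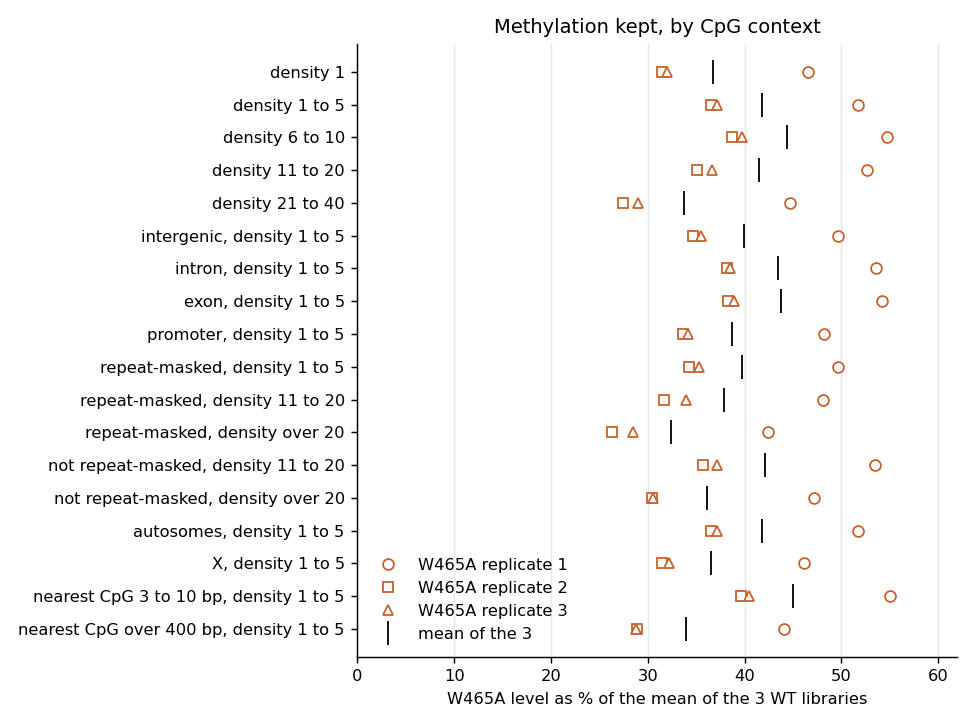
W465A level as a percent of the mean of the 3 WT libraries (horizontal axis) in CpG contexts (vertical axis), with 1 open symbol per W465A library and a bar for their mean. The means run from 32.4% in dense repeat-masked CpGs to 45.0% at CpGs with a neighbour 3 to 10 bp away. Isolated CpGs and X lie near the low end.

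Dense repeats stood lowest among methylated tiles. Of tiles at 80% or more in WT replicate 2, those with over 20 CpGs within 250 bp and mostly masked CpGs (1261 tiles) had 73.7% and 76.6% in WT replicates 1 and 3 and 33.5%, 20.2% and 22.4% in W465A. They kept 33.8% ± 9.48 (SD, n = 3), against 42.1% ± 11.7 (SD, n = 3) for the 1165 less masked tiles of that density and 48.5% ± 9.13 (SD, n = 3) for the 70514 less masked tiles with 5 to 10. In all 3 W465A libraries the masked dense tiles were the lowest class. The files do not name repeat families, so the elements behind these tiles are not identified here.

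Loss was also read at the scale of 100 kb. Over 10054 windows with at least 20 used CpGs of a density of 1 to 5, the median share kept was 53.3%, 38.1% and 38.6% in W465A replicates 1, 2 and 3, and 90% of windows lay between 42.1% and 63.7%, 26.1% and 49.9%, and 27.8% and 49.1%. Windows lying wholly within protein-coding genes kept 45.1% ± 8.50 (SD, n = 3) and those without any 42.9% ± 8.22 (SD, n = 3). The lowest share, 42.1% ± 8.43 (SD, n = 3), was in windows with some but under 50% of their length in such genes. The share kept thus did not rise steadily with gene content. With windows sorted by CpG number into 5 classes, the class with the fewest CpGs kept 40.5% ± 8.80 (SD, n = 3) and the next to highest 44.6% ± 8.38 (SD, n = 3). These differences were seen in each library and were smaller than the difference between replicate 1 and the others. Across windows, Pearson's r of the share kept was 0.46 to 0.55 between W465A libraries, as a description over windows whose shares have the same WT means as denominator.

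Which tiles kept more was partly shared between W465A libraries. Across the 118666 highly methylated tiles, Pearson's r of the levels was 0.41 to 0.48 between W465A libraries, 0.21 to 0.33 between WT libraries and 0.17 to 0.33 between the groups, as a description over tiles, which share libraries and depth. The tiles were chosen at 80% or more in WT replicate 2, which narrows the range of that library (SD 4.37 points against 12.8 and 10.1 in WT replicates 1 and 3) and so bears on each r with it. Tiles were also sorted by their level in W465A replicate 1 and read in the other libraries, among those that had a WT level of at least 80%. From the lowest to the highest of 10 classes, replicate 2 went from 24.7% to 43.0% and replicate 3 from 26.2% to 44.1%. WT replicate 1 went from 74.4% to 79.7% and WT replicate 3 from 86.9% to 88.9%. In the lowest class 45.0% of tiles were intergenic and 24.7% mostly masked, and in the highest class 27.8% and 10.7%. Introns made up 39.4% and 53.5%.

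The 10 tiles that lost most were taken from tiles with at least 20 reads in every library. Their pooled levels fell by 82.0 to 87.1 points, values that describe the choice. They include tiles in Nefm, the medium neurofilament subunit gene of neurons, in an intron of Cfap46, a gene of cilia, and outside protein-coding genes. The Nefm tile (chromosome 14, 68122001 to 68123000, 5 exonic and 2 intronic CpGs) had 85.5%, 97.8% and 100% in WT and 16.2%, 5.56% and 2.86% in W465A. The rule took tiles that were called and did not overlap between the groups. The nearest protein-coding genes of the tiles outside such genes were Gm16405, Sptlc3, Zmat2, Gprin3, Kif2a, Dsel and Vmn2r61, at 9053 to 704083 bp. Every CpG was repeat-masked in the tiles near Sptlc3, Zmat2 and Dsel. All 10 tiles held their call in each alternative in which they could be fitted, with adjusted p of at most 0.0208.

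The 10 tiles that kept most had a WT level of at least 80% and the highest minimum over the W465A libraries. Besides Ccr6 and Nkd1 they include tiles in introns of Dpy19l1, Dok5, Mrvi1 and Vti1a, at the promoter of Glis1 and outside protein-coding genes nearest to Tcf4 and Setd4. The Glis1 tile (chromosome 4, 107438001 to 107439000), at the gene of a Krüppel-like zinc finger factor, had 92.3%, 90.9% and 92.1% in WT and 79.7%, 74.1% and 72.2% in W465A (adjusted p 0.0168). The Vti1a tile (chromosome 19, 55531001 to 55532000), in a SNARE gene of vesicle transport, had 75%, 90.9% and 82.1% in WT and 80.0%, 76.9% and 71.9% in W465A, and the groups overlapped. The Glis1 call was lost without either of 2 of the libraries (adjusted p up to 0.0603). For the 8 of these tiles that were not called the adjusted p lay between 0.0806 and 0.667, which does not show that they kept the WT level. The Dpy19l1 difference was -6.06 points and 0.487 points without WT replicate 3.

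Both sets could be read in the 12 libraries that did not choose them. The comparison class was the 87943 tiles with a WT level of at least 80% and 20 reads per library. It had 28.5% ± 3.30 with W464A/W465A, 62.6% ± 4.01 with W465A/W796A, 28.4% ± 3.09 with the triple form and 81.3% ± 13.1 with W796A (each SD, n = 3). The 10 kept tiles had 40.8% to 67.5% with W464A/W465A, 72.8% to 88.3% with W465A/W796A and 35.6% to 63.2% with the triple form, so 10 of 10 were above the class mean in each group. The 10 lost tiles had 0% to 15.4%, 20.4% to 57.7% and 5.06% to 20.04%, and 10 of 10 were below it in each group. In W796A the kept tiles were above the mean in 10 of 10 and the lost tiles below it in 5 of 10.

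**Figure D4:**
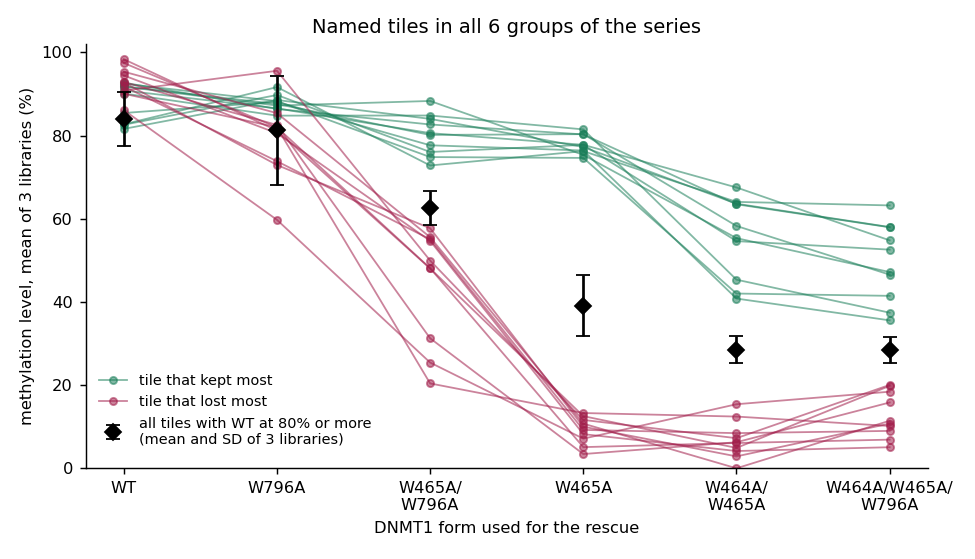
Mean methylation level of 3 libraries (vertical axis, percent) in the 6 groups (horizontal axis) for the 10 tiles that kept most and the 10 that lost most in W465A, 1 line per tile, with black diamonds for the 87943 tiles with a WT level of at least 80% (mean and SD). The 2 sets stay on opposite sides of the diamonds in the 3 other groups that carry W465A.

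Promoters, 500 bp on either side of a start, were mostly unmethylated before any loss. Of 13944 promoters of protein-coding genes 11474 (82.3%) had a WT level below 10%. In W465A 1326 promoters (9.51%) were lower and 0 (0%) higher, with 2045 lower and 0 higher by at least 10 points at an unadjusted p under 0.05. Limma and edgeR were not run on promoters. Of the 1306 promoters with a WT level of at least 50%, 937 were called lower. The promoters' test was close to its threshold: without WT replicate 2, W465A replicate 2 or W465A replicate 3 the count was 0, with 1451, 1763 and 1675 at an unadjusted p under 0.05. It was 2 without WT replicate 3, with 1930 at that p, 449 without W465A replicate 1 and 1863 without WT replicate 1. Gene bodies, from 1000 bp after the start to the end, were lower in 13183 of 14030 genes (94%) and higher in 0 (0%), with 13622 lower and 0 higher by any size at an unadjusted p under 0.05 and no limma or edgeR test.

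The 10 largest promoter falls were at genes of several kinds. Pcdha8, a protocadherin of neuronal surfaces, had 66.2%, 84.8% and 81.7% in WT and 3.90%, 1.85% and 2.29% in W465A over 17 CpGs. Ghrh, the gene of growth hormone-releasing hormone, went from 76.4% ± 9.30 to 10.998% ± 6.33 (SD, n = 3) over 14 CpGs. Dnmt3l, a cofactor of the de novo methyltransferases, had 72.7%, 90% and 87.9% in WT and 25%, 3.70% and 7.32% in W465A over 3 CpGs. The 10 also hold Spin2g, Gm37013, B3galt2, Rhobtb1, Krtap4-9, Ifna7 and Msmp. They were chosen among promoters that were called and did not overlap, and each lost its call without 4 or 5 of the 6 libraries in turn. The promoters that kept most were those of 4930544G11Rik, Gm20721, Gm5105, Spem1, a gene of sperm maturation, and Nlrp3, an inflammasome sensor. Spem1 had 82.4%, 90.7% and 90.6% in WT and 65.5%, 68.8% and 51.9% in W465A over 4 CpGs, and Nlrp3 had 79.2% ± 11.4 and 53.6% ± 4.20 (SD, n = 3) with an adjusted p of 0.0505.

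Among gene bodies the largest falls were in Olfr149, an olfactory receptor gene, Defb39, a beta-defensin gene, Stmn1, the gene of the microtubule regulator stathmin, Dthd1 and Hmox2, which codes for a heme oxygenase. Stmn1 had 75.1%, 80.1% and 65.0% in WT and 14.2%, 3.32% and 7.69% in W465A over 11 CpGs. Dthd1 had 79.1% ± 6.17 and 15.2% ± 5.50 (SD, n = 3) over 41 CpGs. The bodies of Clba1, Clca2, Defb42, Mtdh and Kif12 kept most. Clca2, with 27 CpGs, had 76.4%, 87.8% and 87.5% in WT and 51.3%, 49.2% and 48.0% in W465A, and the groups did not overlap. The 5 bodies that kept most were called lower too (adjusted p between 0.00166 and 0.0139), though Clba1 lost its call without 3 of the libraries in turn and Defb42 and Mtdh without 1 each.

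Germline genes, silenced by promoter methylation in somatic cells and early embryos, are shown by the start regions of 2 of them, because their many CpGs allow a reading base by base. Both are the 250 bases before the start, from RefSeq on GRCm38, minus strand, with measured CpGs in capitals.
Dazl, chr17:50293621-50293870: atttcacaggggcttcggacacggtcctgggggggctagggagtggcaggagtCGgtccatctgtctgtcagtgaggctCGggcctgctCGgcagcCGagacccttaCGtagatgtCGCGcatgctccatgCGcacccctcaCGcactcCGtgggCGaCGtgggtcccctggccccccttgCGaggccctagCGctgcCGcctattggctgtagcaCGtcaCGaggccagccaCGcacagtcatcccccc
Asz1, chr6:18109062-18109311: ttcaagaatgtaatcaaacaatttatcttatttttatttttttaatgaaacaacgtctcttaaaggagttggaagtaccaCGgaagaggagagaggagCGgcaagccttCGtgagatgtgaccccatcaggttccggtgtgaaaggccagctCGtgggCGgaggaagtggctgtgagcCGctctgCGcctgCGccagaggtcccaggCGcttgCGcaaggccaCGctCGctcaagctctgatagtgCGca
Dazl codes for an RNA-binding protein of germ cells and Asz1 for a protein of the piRNA pathway. Over the 18 measured CpGs of the Dazl stretch WT had 64.6%, 87.3% and 84.9% and W465A 35.8%, 18.1% and 28.5%. Pooled per CpG, WT lay between 55% and 93.6% and W465A between 4.08% and 50%, and each of the 18 CpGs was lower in W465A. The Asz1 stretch had 62.6%, 79.4% and 71.1% in WT and 34.4%, 19.4% and 22.7% in W465A over 13 CpGs. The 11th measured CpG of Asz1 had 0% in both groups, while the other 12 had 66.7% or more in WT and 11.1% to 50.96% in W465A. Pooled per group, every CpG methylated in WT was thus lower in W465A and above 0% along both promoters. The loss was uneven: CpG 10 of Dazl went from 65.3% to 4.08% and CpG 8 from 92.6% to 50%. Reads per CpG and library went down to 5, so partial loss cannot be told from near-complete loss at single CpGs.

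Of the 28 germline genes listed, 23 had a covered promoter, and 15 of the 23 (65.2%) were lower in W465A, against 9.51% of all promoters. The mean over the 23 went from 49.0% ± 10.2 to 13.6% ± 5.52 (SD, n = 3), a kept share of 27.8% ± 11.3. The median difference was -38.2 points against -0.34 over all promoters. The list was chosen with earlier results known, and its high WT level places it among the promoters that could fall. Among promoters with a WT level of at least 20%, 15 of 22 on the list and 1223 of 1937 over all genes were called lower.

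By role, promoters of the piRNA pathway that were lower included Mael (34.5%, 40.0% and 32.3% in WT, 11.1%, 8.26% and 4.88% in W465A), Fkbp6 (60.7%, 75.4% and 85.4%, then 24.6%, 18.6% and 13.3%), Asz1 and Rnf17. Rnf17 had 24.1%, 53.3% and 15.6% in WT and 0.592%, 2.33% and 0.656% in W465A. Tdrd1 (adjusted p 0.0867) and Piwil2 (0.0524) did not pass, though their groups did not overlap, and the same held for Hormad1, Rpl10l, Stk31 and Syce1 (adjusted p 0.0512 to 0.238). Among genes of meiotic chromosomes, Smc1b, a meiotic cohesin subunit, had 19.9%, 33.4% and 14.7% in WT and 2.18%, 0.679% and 0.769% in W465A. Sycp3 and Tex11 were lower as well, as were Dazl, Tuba3a, Tex101, Tex19.1, Slc25a31, Brdt, Dmrtb1 and Dnmt3l. Sycp1, of the synaptonemal complex, had 21.3%, 29.4% and 31.2% against 24.0%, 10.4% and 10.5%, with overlap and an adjusted p of 0.224. Ddx4, a germ cell helicase, had 5.88%, 35.4% and 23.6% against 6.67%, 9.17% and 1.11% (adjusted p 0.115), also with overlap. In 21 of the 23 promoters the groups did not overlap, against 27.9% of all promoters. The count called was 19 when WT replicate 1 was left out and 8 when W465A replicate 1 was. It was 0 without WT replicate 2, WT replicate 3, W465A replicate 2 or W465A replicate 3, with 21 at an unadjusted p under 0.05 over all 6 libraries. All 19 covered germline gene bodies were lower, against 94% of all bodies, and kept 42.0% ± 6.36 (SD, n = 3), near the 41.8% ± 9.59 of all bodies.

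**Figure D5:**
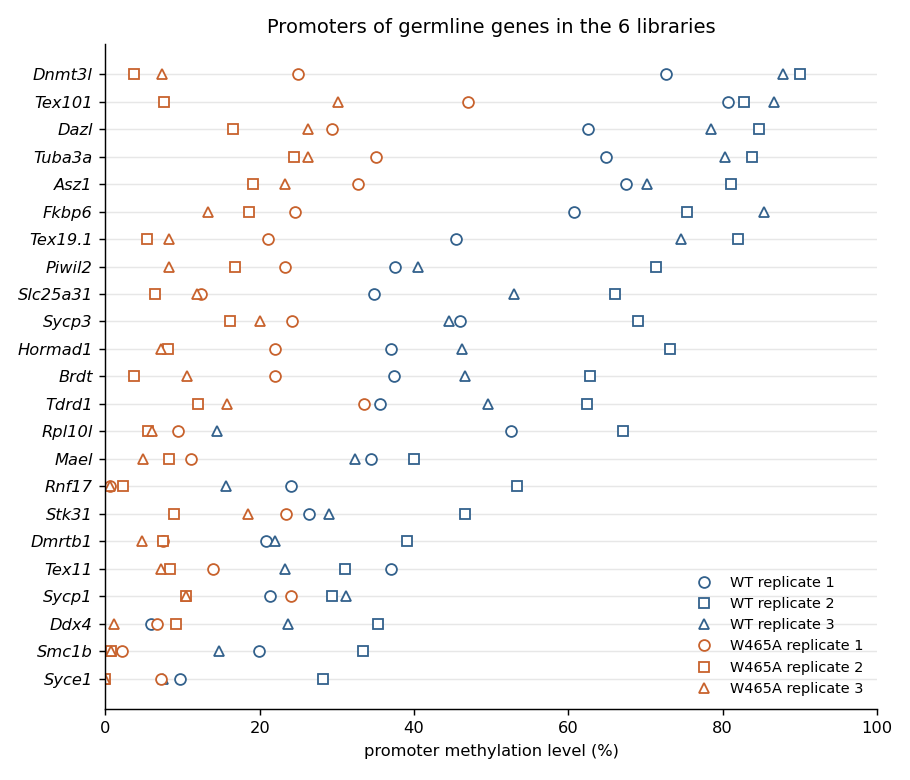
Promoter methylation level (horizontal axis, percent) of the 23 covered germline genes (vertical axis, sorted by WT level), with 1 symbol per library, WT in blue and W465A in orange. Orange symbols lie left of the blue ones except at Sycp1 and Ddx4, and few reach 0.

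Clustered protocadherin genes, which encode the adhesion proteins that give neurons their individual identity, kept little. Their 28 covered promoters went from 15.6% ± 4.50 to 2.55% ± 0.476 (SD, n = 3), a kept share of 16.4% ± 3.06. All promoters together kept 38.1% ± 8.47 (SD, n = 3). Of the 28, 5 (17.9%) were lower, against 9.51% of all promoters, and 19 had an unadjusted p under 0.05. In 16 the groups did not overlap, against 27.9% of all promoters. Among promoters with a WT level of at least 20%, 4 of 7 in these clusters and 1223 of 1937 over all genes were called lower. Pcdha7 had 65.1%, 45.1% and 49.5% in WT and 1.06%, 0% and 0% in W465A. All 41 bodies were lower, against 94% of all bodies, but they overlap one another and share CpGs: 1223 distinct CpGs made up the 11640 summed. Over those distinct CpGs WT had 22.0%, 36.3% and 31.4% and W465A 8.40%, 5.27% and 4.81%, a kept share of 20.6%. The promoter count was 11 without WT replicate 1, 2 without W465A replicate 1 and 0 without any of the other 4 libraries.

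Receptor and structural gene families were called lower over their bodies at shares near the 94% of all bodies. All 20 vomeronasal receptor bodies were lower and kept 33.9% ± 7.20 (SD, n = 3), and Vmn2r91 had 69.3%, 92.6% and 85.2% in WT and 16.7%, 8.99% and 37.5% in W465A. Olfactory receptor bodies were lower in 22 of 23 and kept 39.7% ± 7.63, and Zfp zinc finger bodies were lower in 214 of 235 and kept 37.7% ± 10.4 (each SD, n = 3). Keratin and keratin-associated genes were at the other end: 26 of 29 bodies were lower, and 21 of 36 promoters against 9.51% of all promoters, with kept shares of 46.9% ± 10.2 and 45.2% ± 7.07 (each SD, n = 3). Among promoters with a WT level of at least 20%, 21 of 35 keratin promoters and 1223 of 1937 over all genes were called lower. Krt84, a hair keratin gene, had a promoter level of 82.6%, 89.2% and 89.2% in WT and 51.6%, 44.6% and 43.5% in W465A. The kept shares of these bodies lie within 1 SD of the 41.8% ± 9.59 of all bodies, but that SD is between libraries that all families share. In W465A replicates 1, 2 and 3 all bodies kept 52.8%, 35.9% and 36.6%. Vomeronasal bodies kept less in each (42.0%, 28.2% and 31.5%), as did Zfp bodies (49.7%, 30.8% and 32.6%). Keratin bodies kept more in each (58.7%, 40.7% and 41.4%), and olfactory bodies went both ways (48.3%, 33.8% and 36.9%). These differences were not tested. The keratin promoter count was 29 without WT replicate 1, 6 without W465A replicate 1, and 0 without any of the other 4 libraries.

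The remaining lists are to be read against the 9.51% of promoters and 94% of bodies called lower over all genes. Of all promoters with a WT level of at least 20%, 1223 of 1937 were called lower. For every list in this and the next paragraphs the promoter count was 0 without WT replicate 2, WT replicate 3, W465A replicate 2 or W465A replicate 3. Of 13 pluripotency promoters 0 were lower, with 3 at an unadjusted p under 0.05, and of 20 promoters of developmental regulators 0 were lower, with 4 at that p. Their bodies were lower in 9 of 15 and 9 of 23 genes. These bodies averaged 28.6% and 18.1% in WT against 62.5% over all bodies, which leaves less room for a fall of 10 points. They kept 34.4% ± 14.8 and 41.3% ± 6.30, against 41.8% ± 9.59 over all bodies (each SD, n = 3). Of those with a WT level of at least 20%, 9 of 10 and 8 of 8 were called lower. Over all genes, 12952 of 13015 bodies at that WT level were called lower. Nanog, a pluripotency factor, had a body level of 14.9%, 28.7% and 16.1% in WT and 10.5%, 4.64% and 2.48% in W465A. Hox genes, which pattern the body axis, were lower at 2 of 36 promoters, Hoxc4 and Hoxd12, and 6 of 24 bodies. The Hox bodies averaged 11.9% ± 3.63 in WT and kept 39.8% ± 5.13 (each SD, n = 3). Of the Hox bodies with a WT level of at least 20%, 3 of 5 were called lower. Trophoblast genes were lower at 2 of 9 promoters (22.2%), Krt7 and Hand1. Elf5, a trophoblast regulator that ES cells keep methylated, was not called at its promoter (40.0%, 83.7% and 76.5% in WT, 40.6%, 36.9% and 44.6% in W465A, adjusted p 0.165), where WT replicate 1 lay at the W465A level.

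Genes of the methylation machinery were called at shares near those of all genes, 11.8% of promoters and 89.5% of bodies. Promoters of Dnmt3l and of Zfp57, which protects imprints, were the 2 of 17 that were lower. Zfp57 had 71.4%, 92.0% and 80.0% in WT and 32.0%, 21.4% and 30% in W465A. Bodies were lower in 17 of 19 genes, among them Dnmt1 itself, whose locus had 53.4%, 65.0% and 53.5% in WT and 27.9%, 16.6% and 19.02% in W465A, and Uhrf1, with 63.3%, 70.3% and 62.4% against 32.0%, 20.4% and 23.9%. Of the neurofilament genes only the Nefm promoter was called lower, 1 of 5, with 14.7%, 17.1% and 38.6% in WT and 1.37%, 0.508% and 0.15% in W465A over 56 CpGs. The promoters of Nefl, Nefh and Ina were at 1.10% or less in every library, and that of Prph, a related intermediate filament gene, had 8.30%, 9.94% and 10.5% in WT and 3.72%, 2.38% and 1.12% in W465A.

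Imprinted genes with maternally methylated control regions were mostly unmethylated at their promoters already in WT. Of 11 covered promoters 2 (18.2%) were lower, Plagl1 and Grb10, against 9.51% of all promoters. Grb10 had 37.5%, 63.6% and 72.7% in WT and 27.0%, 11.1% and 19.05% in W465A, over 3 CpGs. Nnat had 38.3%, 13.4% and 13.6% against 1.01%, 0.965% and 0.664% over 27 CpGs, without overlap but with an adjusted p of 0.0507. Of their 12 bodies 11 (91.7%) were lower, near the 94% of all bodies, and Peg3 had 72.6%, 74.0% and 71.6% in WT and 32.2%, 28.8% and 23.9% in W465A.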

How the data were processed

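Bisulfite reads of 6 libraries, 3 WT and 3 W465A, were compared. The authors deposited, per CpG and library, the methylated read count and the total read count, on mm10. Per the submitters' processing notes, cutadapt 1.2.1, Bismark 0.18.1 and Bowtie 1.2 were used, with roles not given in the sources used here. A level is the first count over the second, so incomplete conversion would raise it, and it includes no correction for that. CpGs needed 5 reads in each of the 6 libraries, tiles and promoters 3 such CpGs, and bodies 10. Annotation and sequences come from GRCm38. Each feature was tested with a quasi-binomial logistic model whose dispersion was squeezed by the method of limma, with Benjamini-Hochberg adjustment over all features. A call needed an adjusted p under 0.05 and a pooled difference of 10 points. Python 3.11.15, numpy 2.4.6, scipy 1.17.1, R 4.3.3, limma 3.58.1 and edgeR 4.0.16 were used, limma and edgeR on tiles as alternatives. Departure from a common shift was tested with an offset per library on the logit scale. It was the median of the library's logit minus the tile's mean logit, over tiles with a 6-library pooled level of 20% to 80%. Named tiles were the 10 largest falls among called, non-overlapping tiles with 20 reads per library, and the 10 tiles with a WT level of at least 80% whose lowest W465A library was highest. Promoters (10 and 5) and bodies (5 and 5) were named likewise, with any tile called higher and members of fixed lists. Members and lists were chosen with earlier results of these data known. Alternatives covered coverage, minimum difference, squeezing, tile and promoter size, each library left out, and the replicate number as a block. Same-numbered libraries did not deviate together (r -0.08, -0.02 and -0.01 over 252536 tiles), so the numbers were not used as pairs. Some items chosen by this rule are not reported here.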

Additional observations from a re-analysis of the deposited data

How the results depend on the processing

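The mean difference was negative, and tiles and bodies called lower outnumbered those called higher, in every alternative run. Promoters had no call in either direction in some of them, as given below. The mean difference ran from -34.3 to -28.1 points with 1 library left out, and was -27.5 points over CpGs read in all 18 libraries and -25.1 points with reads counted once. As a replicate block it was -30.6 points (exact p 0.25, the smallest of 3 pairs). The contrast of intergenic with promoter CpGs changed sign, to -0.0435 at 10 reads, -0.46 at 20 reads and -0.0169 with reads counted once. That of a density of 1 to 5 with over 20 kept its sign. It was 0.05 at 20 reads, 0.18 with reads counted once (exact permutation p 0.3) and 0.14 without WT replicate 2.

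Tiles called lower numbered 42312 at 10 reads, 128817 with all 18 libraries fitted, 456241 with at least 1 CpG and 15712 with at least 10, where fewer tiles were tested or more, and 162899 to 219899 with 1 library left out. Tiles called higher numbered 0 at 10 reads, with a 25-point minimum, without squeezing and with at least 10 CpGs, 17 with no minimum difference, 4 with at least 1 CpG, 2 by limma, 2 by edgeR and 0 to 1 with 1 library left out. Tiles above the common shift numbered 6 at 10 reads, 4.6e+02 with no minimum, 14 with a 25-point minimum, 0 without squeezing, 705 with 18 libraries, 0 with the replicate block, 22 with an offset from the library mean, 33546 by a common ratio without a test, and 0 to 39 with 1 library left out. Tiles below it numbered 18 at 10 reads, 185 with a 25-point minimum, 0 without squeezing, 1191 with 18 libraries, 0 with the replicate block, 3897 with the mean offset, 38178 by the common ratio, and 1 to 210 with 1 library left out. Promoters called lower numbered 180 at 10 reads, 11 without squeezing, 0 with the replicate block, 3021 with 1000 bp either side, and 0 to 1863 with 1 library left out, and 9 were higher with no minimum difference. Bodies called lower numbered 5990 at 10 reads and 12345 to 13285 with 1 library left out. The share of tiles at 80% or more with at least 10 CpGs, an alternative chosen after seeing the data, was 16.1% in WT and 0.00286% in W465A. The Dpy19l1 difference ran from -11.8 to 0.487 points with 1 library left out. Other causes of these changes were not tested. At 5 reads a single CpG is resolved coarsely, which is why tiles carry the tests, and intervals would cover counting error only.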
